A study of Mus musculus with 4 samples.

Results

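The proteasome is the barrel-shaped protease that breaks down proteins tagged with ubiquitin. Its genes were followed here in mouse testis RNA with and without PIWIL1, a PIWI protein that binds piRNAs in meiotic and postmeiotic male germ cells. Members were the genes whose symbol is Psma, Psmb, Psmc, Psmd, Psme, Psmf or Psmg followed by a number, 48 of the 22808 genes in the table, and all 48 were listed. The RNA came from whole testes at postnatal day 23, when the first wave of spermatogenesis has reached meiosis and early spermatids. Of the 4 samples of the series these are 2, the others being small RNAs bound to PIWIL1 in adult wild-type testis. Testis RNA was sequenced in 1 library from Piwil1+/- animals, which keep a normal copy of the gene, and 1 library from Piwil1-/- animals. The labels do not give the kind of allele, the strain of these mice or whether a library pooled animals.

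The catalytic core of the proteasome, the 20S particle, is a stack of rings made of alpha subunits, which gate the entry of proteins, and beta subunits, some of which cut. A 19S cap with a ring of ATPases binds ubiquitin chains, unfolds the protein and feeds it into the core. Cells exposed to interferon swap the constitutive cutting subunits for immune ones, and male germ cells make an alpha subunit of their own, Psma8, a paralog of Psma7 that is required for meiosis to finish.

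Levels are RPKM, reads per kilobase of gene scaled to the mapped reads of the library. Genes can be set side by side per length only as far as their lengths are of a like kind. The gene lengths that the values imply seem to mix coding lengths and longer models. Differences of level between genes carry that limit, while the ratio of a gene between the libraries does not depend on its length. Piwil1 itself was at 26.2 RPKM in Piwil1+/- and was listed at 0 in Piwil1-/-, as the labels say. The RPKM values imply totals of 104014686 reads in Piwil1+/- and 100254357 in Piwil1-/-. With 1 library per genotype no difference has a replicate check and none was tested. The 95% counting intervals below come from whole read numbers recovered from the RPKM values. They cover counting error only, since PCR copies are not independent and animals can differ. The read numbers are lower bounds, so an interval can be wider than the full reads would give. An interval that holds 1 might thus leave it out at the full reads. A log2 ratio is log2 (RPKM + 1) in Piwil1-/- minus that in Piwil1+/-, a scale that understates differences of low genes; a fold printed for a gene is the plain ratio of RPKM values, while genes past a fold are counted on the log2 (RPKM + 1) scale. A gene counted as measured if it reached 1 RPKM in at least 1 of the libraries, which held for 42 of the 48 members and 9951 genes in all.

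Most proteasome genes were well expressed in both testes. In Piwil1+/-, 36 of the 48 were at 10 RPKM or more, and 34 in Piwil1-/-. The members spanned from 0 to 231 RPKM in Piwil1+/- and from 0 to 243 RPKM in Piwil1-/-. The level of the 3 highest, Psmd2, Psme4 and Psmc3, stood apart in both libraries: the lowest of them was at 214 and 204 RPKM, and the fourth member, Psma3, at 103 and 112 RPKM. The 6 genes under 1 RPKM in both libraries were the immune subunits Psmb8, Psmb9 and Psmb10, the thymus subunit Psmb11, and the assembly chaperones Psmg3 and Psmg4. Apart from Psmb11, the immune subunits had the lowest median level of any role in both libraries, 0.211 and 0.231 RPKM, against 36.4 and 34.8 RPKM for the 17 cap subunits.

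**Figure D1:**
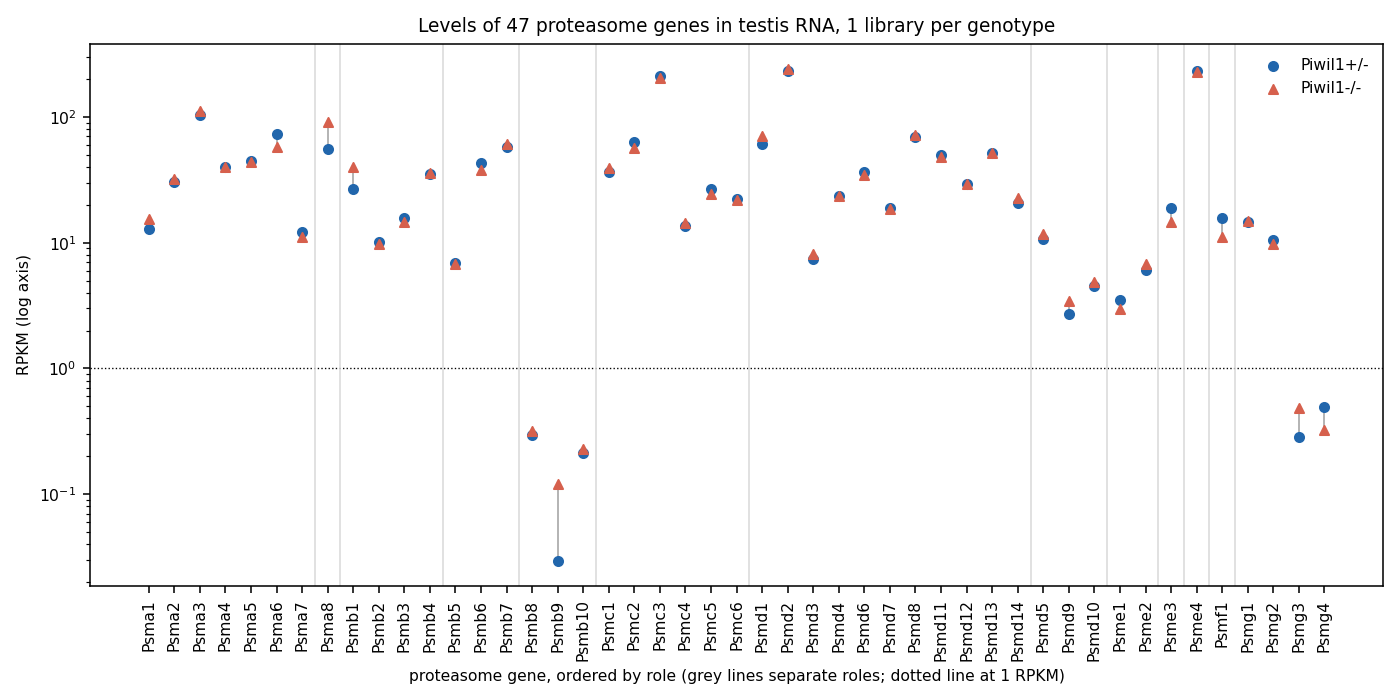
RPKM (log axis) of the 47 proteasome genes above 0, in Piwil1+/- (blue circles) and Piwil1-/- (red triangles), ordered by role; Psmb11, at 0 in both, is left out. The symbols of a gene lie close together for most members, Psma8 and Psmb1 are higher in Piwil1-/-, and the 3 immune subunits lie under the dotted line at 1 RPKM.

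Among the alpha subunits, the testis paralog Psma8 was the measured member with the highest log2 ratio. Psma8 was at 55.3 RPKM in Piwil1+/- and 91.8 RPKM in Piwil1-/-, from at least 4334 and 6930 reads. Its level was therefore 1.66-fold higher in Piwil1-/- (counting interval 1.597 to 1.72), a log2 ratio of 0.72. Of the 9951 measured genes, 67 had a higher log2 ratio than Psma8. Psma7, the general subunit that Psma8 resembles, lies on chromosome 2, 180036367 to 180042464 (mm10). It was at 12.2 and 11.1 RPKM, 0.908-fold (0.826 to 0.998). In both libraries the testis paralog was thus above the general one, and the gap was wider in Piwil1-/-. Psma8 made up 82.0% of the RPKM of the pair in Piwil1+/- (80.9% to 83.0%) and 89.3% in Piwil1-/- (88.5% to 89.9%). Against the sum of all 8 alpha subunits, its part was 14.8% and 22.7% of the RPKM. No source used here says how reads that match several places were treated, so reads from stretches that Psma7 and Psma8 share could be counted for either.

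The other 6 alpha subunits showed smaller differences. Psma3 was the highest alpha subunit in both libraries, at 103 and 112 RPKM, 1.08-fold (1.04 to 1.12). Psma6 (chromosome 12, 55384222 to 55418459) was the lowest by ratio, at 73.6 RPKM in Piwil1+/- and 58.2 RPKM in Piwil1-/-, 0.791-fold (0.755 to 0.829). Psma1 was at 12.9 and 15.4 RPKM, 1.19-fold (1.13 to 1.27). Psma2 had 30.6 and 32.2 RPKM, Psma4 had 40.1 RPKM in each and Psma5 had 44.9 and 43.8 RPKM, and their counting intervals held 1. The 7 general alpha subunits form each ring in equal numbers, yet their RPKM covered a range from 12.2 to 103 in Piwil1+/-, with a coefficient of variation of 73.0%, and of 75.7% in Piwil1-/-. Their median log2 ratio was 0.0013, a sign that turned with the scaling, so the group's middle was at equal level.

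Psma8 is expressed in meiotic cells, whose markers were also compared. Of 20 meiotic prophase genes, 19 were measured and 16 of these had a log2 ratio above 0, with a median of 0.10. Their summed level was 1186 RPKM in Piwil1+/- and 1273 RPKM in Piwil1-/-. Of 12 markers of late pachytene and the meiotic divisions, all measured, 5 were above 0 and 7 below, with a median of -0.01. Their summed levels were 2192 and 2021 RPKM. Most of that sum, and of its difference, came from Ldhc, at 1638 and 1479 RPKM. The highest log2 ratios of this list were those of Piwil2 at 0.47 and Ybx2 at 0.43. Its lowest were those of Nme5 at -0.31 and Pgk2 at -0.29. The highest log2 ratios among the prophase genes were those of Mei1, needed for meiotic double-strand breaks, at 0.27 and Meioc, needed for meiotic prophase, at 0.23, both below that of Psma8. The lowest were those of Syce2, of the synaptonemal complex, at -0.23 and Rec8, the meiotic cohesin, at -0.20. Whether more cells of a stage, or more RNA per cell, stood behind the higher Psma8 level cannot be told apart in bulk RNA, and the part of these markers in it was not tested.

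Among the beta subunits, the structural ones (Psmb1 to Psmb4), which do not cut, held the member with the second highest ratio. Psmb1 lies on chromosome 17, 15475721 to 15498276, and had 26.7 RPKM in Piwil1+/- and 39.9 RPKM in Piwil1-/-, from at least 2008 and 2894 reads. That is 1.495-fold higher (1.41 to 1.58), with a log2 ratio of 0.56. Its fellow structural subunits were close to equal: Psmb2 had 10.1 and 9.74 RPKM, Psmb3 had 15.7 and 14.7 RPKM and Psmb4 had 35.3 and 35.9 RPKM, all with counting intervals that held 1. Psmb1 alone of the 4 was thus outside 1.25-fold.

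The constitutive cutting subunits were at similar levels in the 2 libraries. Psmb5 (chromosome 14, 54614120 to 54617995), which cuts after hydrophobic residues, was at 6.93 and 6.76 RPKM. Psmb6, which cuts after acidic residues, was at 43.04 and 38.03 RPKM, 0.884-fold (0.839 to 0.930). Psmb7, which cuts after basic residues, was at 57.9 and 60.7 RPKM. Psmb5 was the lowest general core subunit in both libraries, although each particle holds it in the same number as Psmb6 and Psmb7.

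The immune counterparts of these subunits were near the floor of the data. Psmb8, which replaces Psmb5, was at 0.293 RPKM in Piwil1+/- and 0.316 RPKM in Piwil1-/-, from at least 24 and 25 reads. Psmb9, which replaces Psmb6, was at 0.0293 and 0.121 RPKM, from at least 3 and 12 reads, a ratio of 4.15 with a counting interval of 1.12 to 22.9. Psmb10, which replaces Psmb7, was at 0.211 and 0.231 RPKM, from at least 18 and 19 reads. The ratios of Psmb8 (0.592 to 1.98) and Psmb10 (0.544 to 2.21) had wide counting intervals around 1. No difference of these was detectable at the recovered read numbers, which are lower bounds. For Psmb9 the interval lies above 1 but rests on the 3 reads recovered for Piwil1+/-. Psmb11, the cutting subunit of thymus cortex cells, was listed at 0 in both libraries, where a count of 0 allows up to 3 reads.

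Set beside their partners, the immune subunits were a small part of each pair. Psmb8 made up 4.05% of the RPKM of Psmb8 and Psmb5 in Piwil1+/- (2.61% to 5.97%) and 4.47% in Piwil1-/- (2.91% to 6.53%). Psmb9 made up 0.0679% of its pair in Piwil1+/- (0.0140% to 0.198%) and 0.318% in Piwil1-/- (0.164% to 0.555%). Psmb10 made up 0.362% of its pair in Piwil1+/- (0.214% to 0.573%) and 0.378% in Piwil1-/- (0.227% to 0.591%). In sum the immune subunits held 0.491% of the RPKM of the 6 cutting genes in Piwil1+/- and 0.629% in Piwil1-/-. The share of Psmb8 was the highest of the 3, and its partner Psmb5 had the lowest level of the constitutive subunits.

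**Figure D2:**
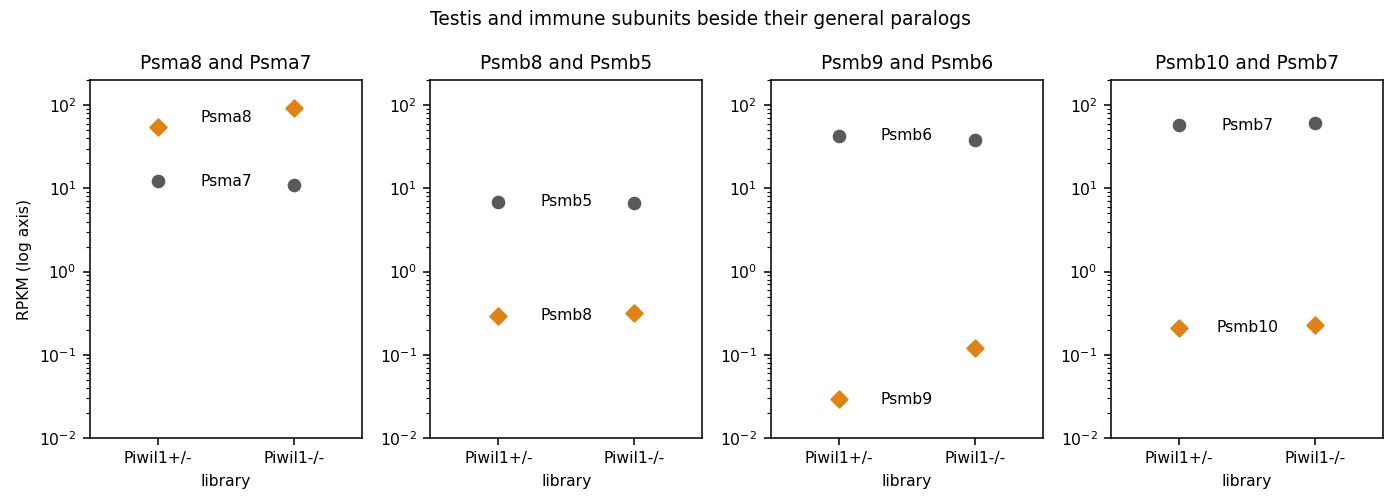
RPKM (log axis) of Psma8, Psmb8, Psmb9 and Psmb10 (orange diamonds) and of their general paralogs (grey circles) in the Piwil1+/- and Piwil1-/- library. Psma8 lies above Psma7 in both libraries, while each immune subunit lies at least 21.4-fold below its constitutive partner.

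Other genes of the interferon response and of antigen presentation were low too. Of 15 such genes 8 were measured, and none of these was past 1.5-fold on the log2 (RPKM + 1) scale. The interferon-induced GTPase Gbp3 was at 1.22 and 1.17 RPKM, a log2 ratio of -0.03. Tapbp, which helps to load peptides on class I molecules, had the highest, 0.55, from 3.53 and 5.65 RPKM, with a counting interval of the plain fold from 1.39 to 1.85. The class I gene H2-K1 came next with 5.30 and 6.22 RPKM. Of those under 1 RPKM, Tap1, the peptide transporter encoded next to Psmb9, was at 0.309 and 0.265 RPKM, Tap2 at 0.282 and 0.475 RPKM and the interferon-induced GTPase Igtp at 0.297 and 0.851 RPKM. Of 12 leukocyte markers 4 were measured, with summed levels over the 12 of 20.7 RPKM in Piwil1+/- and 16.8 RPKM in Piwil1-/-. Aif1, a macrophage gene, had the lowest ratio among them, from 10.5 and 4.97 RPKM, a larger fall than that of the whole sum. The other leukocyte markers together were thus not lower in Piwil1-/-. Lyz2, a lysozyme, had the highest ratio, from 3.42 and 4.80 RPKM. Ptprc, the common leukocyte antigen, was at 0.647 and 0.770 RPKM, Cd79a was listed at 0 in both libraries and Cd3e at 0 in Piwil1+/-. From which cells the few immune subunit reads came was not tested.

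The sequences before the start sites of Psmb5 and of the 3 immune subunits are shown to set a constitutive cutting gene beside the low ones. The 200 bases upstream of each start are given 5′ to 3′ on the gene's strand, from RefSeq on GRCm38.p6 (mm10). Capitals mark matches on either strand to TGACNNNGC, the core bound by NFE2L1, the factor that raises proteasome genes when proteolysis falls short, to CCAAT, the NF-Y box, and to AANNGAAA, a core of interferon regulatory factors.
Psmb5 (chr14:54617996-54618195, minus strand): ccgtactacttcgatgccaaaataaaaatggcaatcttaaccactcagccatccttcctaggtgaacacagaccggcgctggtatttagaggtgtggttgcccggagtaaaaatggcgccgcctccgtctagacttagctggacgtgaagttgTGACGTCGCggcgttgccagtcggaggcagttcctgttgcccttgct
Psmb8 (chr17:34197995-34198194, plus strand): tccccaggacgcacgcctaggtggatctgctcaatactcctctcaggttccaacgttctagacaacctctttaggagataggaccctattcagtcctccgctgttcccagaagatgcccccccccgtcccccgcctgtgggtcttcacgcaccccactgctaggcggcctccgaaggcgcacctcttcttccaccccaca
Psmb9 (chr17:34187331-34187530, minus strand): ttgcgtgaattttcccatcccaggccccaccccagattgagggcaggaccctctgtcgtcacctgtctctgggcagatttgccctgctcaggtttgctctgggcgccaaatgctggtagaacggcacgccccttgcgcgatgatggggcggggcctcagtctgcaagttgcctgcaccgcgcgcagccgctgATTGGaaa
Psmb10 (chr8:105938393-105938592, minus strand): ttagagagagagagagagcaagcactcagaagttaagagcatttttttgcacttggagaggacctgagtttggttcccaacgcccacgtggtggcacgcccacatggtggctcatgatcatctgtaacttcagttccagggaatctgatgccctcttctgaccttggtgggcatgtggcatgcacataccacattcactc
The Psmb5 stretch held 1 TGACNNNGC match, and Psmb9 held 1 CCAAT match, on the opposite strand, just before its start. No match to the 3 cores was found in the stretches of Psmb8 and Psmb10, which says only that these letters are not in this window. G and C made up 53.5% of the Psmb5 stretch, 60.5% of Psmb8, 62.0% of Psmb9 and 50.5% of Psmb10.

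Over the full window of 250 bases before to 50 after the start, searched on both strands, promoters were found for 40 members. Psma8 was not among them, so its promoter was not searched. TGACNNNGC occurred in 6 of the 40, 15.0%, against 14.0% of the 27025 genes with a promoter. These were Psmb5, Psmb6, Psmc6, Psmd9, Psmd12 and Psme4. CCAAT occurred in 14 members, 35% against 41.1% of all genes, and AANNGAAA in 13 members, 32.5% against 26.7%. None of the 3 immune subunits held AANNGAAA in this window. The shares of the members were thus near those of all promoters for each core.

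The ATPase ring of the 19S cap showed small ratios at very unequal levels. Psmc3 (chromosome 2, 91054016 to 91059438) was the highest of the 6, at 214 and 204 RPKM, 0.955-fold (0.947 to 0.962), and Psmc4 the lowest, at 13.5 and 14.3 RPKM. Psmc1 had the highest ratio, 1.07-fold from 36.4 to 39.02 RPKM, and Psmc2 the lowest, 0.888-fold from 63.6 to 56.5 RPKM. Psmc5 was at 26.5 and 24.5 RPKM and Psmc6 at 22.2 and 22.01 RPKM. No ATPase gene was past 1.25-fold, and their median log2 ratio was -0.04. The level of Psmc3 depends on the gene model: the length that its RPKM values imply, 5417 bases, is close to its whole RefSeq span of 5423 bases, introns included.

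All 11 non-ATPase subunits of the cap lay within 1.25-fold, with a median log2 ratio of 0.01. Psmd2 (chromosome 16, 20651122 to 20663414), a scaffold of the base of the cap, was the highest at 231 and 243 RPKM. Psmd3, a lid subunit, was the lowest, at 7.43 and 8.06 RPKM. Psmd1, the other scaffold, had the highest ratio, 60.9 against 70.3 RPKM, 1.16-fold (1.12 to 1.195), and Psmd6 the lowest, 36.4 against 34.8 RPKM, 0.956-fold (0.916 to 0.998). The ubiquitin receptor Psmd4 was at 23.7 RPKM in each library, and Psmd14, the enzyme that cuts ubiquitin chains off the substrate, at 20.9 and 22.5 RPKM. Psmd7, the inactive partner of Psmd14, was at 18.8 and 18.6 RPKM, and the lid subunits Psmd8, Psmd11, Psmd12 and Psmd13 ranged from 29.5 to 69.01 RPKM in Piwil1+/-.

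The chaperones that build the cap and the core had lower median levels than the subunits, 4.52 and 5.48 RPKM in Piwil1+/- against 36.4 RPKM for the 17 cap subunits and 33.0 RPKM for the 14 general core subunits, although Psmg1, Psmg2 and Psmd5 were above the lowest subunits. Of the cap chaperones, Psmd5 was at 10.7 and 11.7 RPKM, Psmd10, also called gankyrin, at 4.52 and 4.85 RPKM, and Psmd9 at 2.69 and 3.41 RPKM. All 3 had a log2 ratio above 0, with a median of 0.13, and the plain fold of Psmd9 was 1.27 (0.9996 to 1.61). The counting interval of Psmd10 held 1 as well. Of the core chaperones, Psmg1 was at 14.5 and 14.8 RPKM and Psmg2, which pairs with it, at 10.5 and 9.79 RPKM. Psmg3 and Psmg4, the other pair, were at 0.287 and 0.487 RPKM and at 0.495 and 0.321 RPKM, from at least 11 and 32 reads in Piwil1+/-. The first pair was thus well above the second in both libraries.

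Among the activators that can replace the cap, Psme4 far exceeded the others. Psme4 (chromosome 11, 30771775 to 30881150) encodes PA200, which opens the core for acetylated histones in spermatids, and was at 231 RPKM in Piwil1+/- and 228 RPKM in Piwil1-/-, 0.987-fold (0.980 to 0.994). Its level was 12.3-fold and 15.7-fold that of Psme3, the nuclear PA28 gamma. Psme3 (chromosome 11, 101316213 to 101323537) was at 18.7 and 14.5 RPKM, 0.775-fold (0.721 to 0.832). Psme1 and Psme2, the interferon-inducible PA28 alpha and beta, which form 1 ring together, were at 3.52 and 2.99 RPKM and at 6.11 and 6.79 RPKM. Their ratios pointed to opposite sides, 0.848-fold (0.781 to 0.921) for Psme1 and 1.11-fold (1.03 to 1.203) for Psme2. Psme4 overlaps Erlec1 by 18357 bp, a gene at 13.6 and 15.6 RPKM, so some reads there could belong to either. The Psme1 values imply a gene length of 3505 bases, more than its RefSeq span of 3034, so its level depends on a gene model that is not known.

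The lowest ratio of any measured member was that of Psmf1, which encodes PI31, an inhibitor of the core in the test tube and an adaptor for its transport in cells. Psmf1 lies on chromosome 2, 151716062 to 151744199. Its levels were 15.7 RPKM in Piwil1+/- and 11.01 RPKM in Piwil1-/-, from at least 961 and 651 reads. Its level in Piwil1-/- was 0.703-fold (0.635 to 0.777), a log2 ratio of -0.47. Of the measured genes, 669 had a lower log2 ratio. Psmf1, Psme3 and Psma6 were the only measured members at least 1.25-fold lower on the log2 (RPKM + 1) scale, and Psma8 and Psmb1 the only ones at least 1.25-fold higher.

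Counted over all members, the proteasome genes followed the bulk of the transcriptome. On the log2 (RPKM + 1) scale, none of the 42 measured members was at least 2-fold higher in Piwil1-/-, where 0.231% of all measured genes were, and none was at least 2-fold lower, where 1.96% of all were. Psma8 was the only member at least 1.5-fold higher, 1 of 42, against 1.42% of all measured genes. No member was at least 1.5-fold lower, against 5.21% of all. Within 1.25-fold on this scale lay 37 of the 42 members, and 83.9% of all measured genes; by the plain ratio 36 members did, since Psmd9 was then outside. Among genes with a mean RPKM of 5 or more these were 34 of 39 members and 85.7% of all. Each of these shares of members was near the share of all genes. The counting interval of the fold lay on 1 side of 1 for 23 of the 42 members, 12 above and 11 below. It did so for 53.7% of all measured genes with read numbers. Both counts can be too low, since the read numbers are lower bounds. The median log2 ratio was 0.0019 over the members and 0.0055 over all measured genes.

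**Figure D3:**
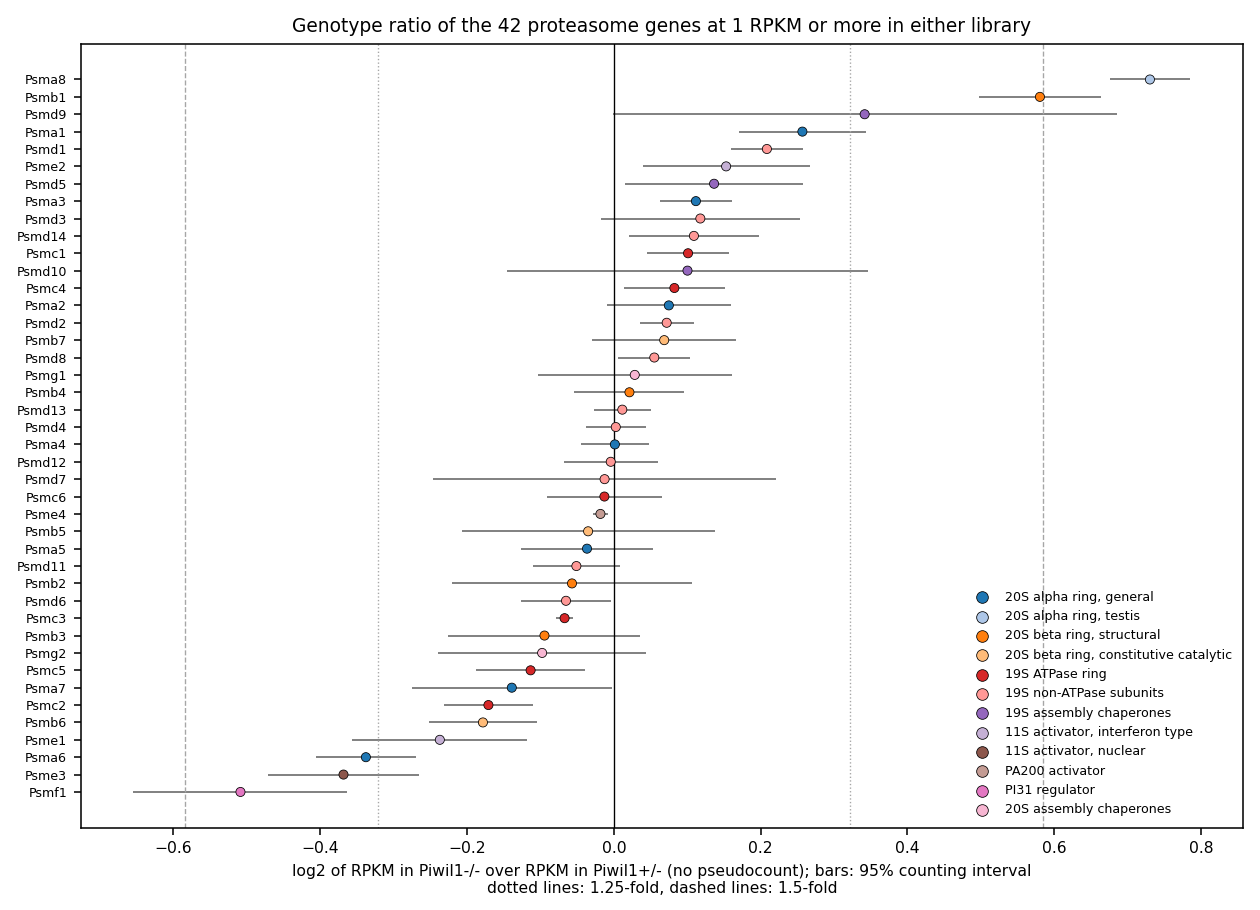
Log2 of the plain RPKM ratio, Piwil1-/- over Piwil1+/-, for the 42 measured proteasome genes (points, coloured by role) with 95% counting intervals (bars). Psma8 alone lies past the dashed line of 1.5-fold on the right, Psmb1 sits at that line, and Psmf1, Psme3 and Psma6 are the lowest.

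**Figure D4:**
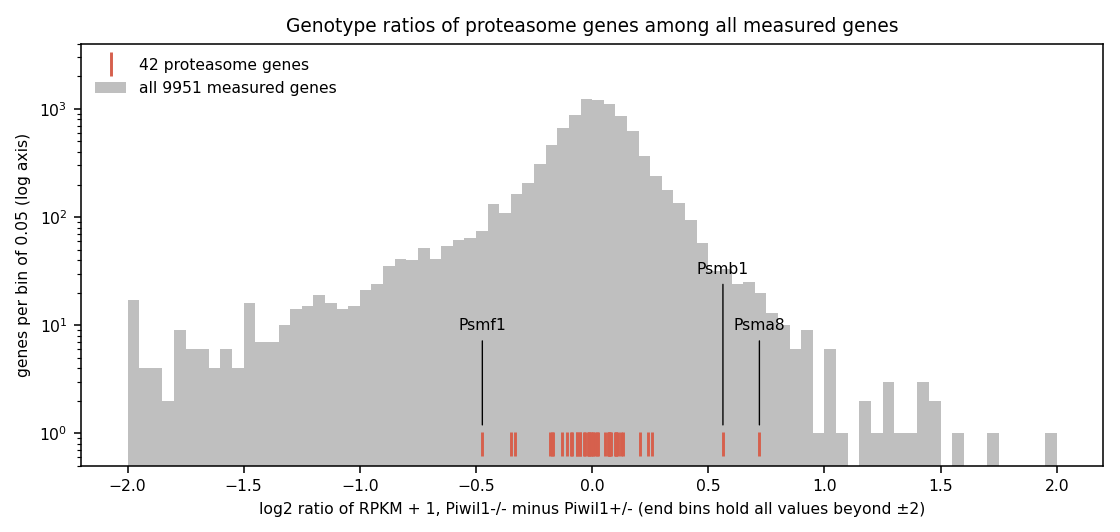
Number of measured genes (grey, log axis) by log2 ratio of RPKM + 1 in bins of 0.05, with the 42 proteasome genes as red ticks. The members gather around 0; Psma8 at 0.72 and Psmb1 at 0.56 lie in the right tail and Psmf1 at -0.47 in the left.

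Genes that work with the proteasome without carrying its name were compared in the same way. Of 40 such genes, 37 were measured, 20 with a log2 ratio above 0 and 17 below, with a median of 0.02. On the log2 (RPKM + 1) scale none was at least 1.5-fold higher, against 1.42% of all measured genes. At least 1.5-fold lower were 3, against 5.21% of all, and 1 of these was at least 2-fold lower, against 1.96% of all. The 3 lower genes were in the list of shuttles, whose proteins carry ubiquitin-tagged substrates to the proteasome, and of ubiquitin handling. Ubqlnl, a testis shuttle gene, had the lowest log2 ratio and was at 4.16 RPKM in Piwil1+/- and 0.305 RPKM in Piwil1-/-, 0.0733-fold (0.0548 to 0.0961). Ddi1, another testis shuttle gene, was at 24.5 and 13.0 RPKM, 0.530-fold (0.499 to 0.563).

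Widely expressed relatives of these genes had log2 ratios closer to 0. Ubqln1 was at 18.5 and 18.4 RPKM, and Ubqln4 at 1.99 and 2.41 RPKM. Ddi2, a protease that activates NFE2L1, was at 6.80 and 7.48 RPKM. Over the 18 measured genes of shuttles and ubiquitin handling the median log2 ratio was -0.0002, with 9 above 0 and 9 below. The highest was that of Zfand5, a proteasome activator, at 0.29. Those below 0 included Ufd1, at 40.03 and 28.3 RPKM, and Ngly1, at 50.06 and 39.1 RPKM.

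The subunits and builders with other names were close to equal, with a median log2 ratio of 0.05 over 7 genes. Pomp, the chaperone that completes the core, had the lowest ratio, from 9.53 and 8.86 RPKM, followed by Txnl1, a thioredoxin of the cap, from 13.1 and 13.5 RPKM. Sem1, the smallest cap subunit, had the highest, from 0.903 and 1.36 RPKM, with a counting interval of the plain fold from 0.822 to 2.81, followed by the phosphatase Ublcp1, from 9.38 and 10.2 RPKM. Among ubiquitin and its activating enzymes the median log2 ratio of 7 genes was -0.13. Rps27a, a fusion of ubiquitin and a ribosomal protein, had the highest log2 ratio, 0.31, from 40.8 and 50.7 RPKM, followed by the activating enzyme Uba6 at 0.15.

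Among 5 factors that bind promoters of proteasome genes, the median log2 ratio was 0.25, the value of Nfe2l1. Nfe2l1 was at 8.77 and 10.6 RPKM, 1.21-fold (1.11 to 1.33). The NF-Y subunits Nfyc and Nfyb had the highest log2 ratios, 0.46 and 0.31. Nfyc was at 2.35 and 3.62 RPKM, a plain fold of 1.54 (1.09 to 2.18). Nfe2l2, the relative of Nfe2l1, and Nfya had the lowest, -0.13 and -0.06.

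Most spermatid markers had log2 ratios below the median of the proteasome genes. Of 14 round spermatid markers, all measured, 6 were at least 1.5-fold lower on the log2 (RPKM + 1) scale, 8 by the plain ratio, and none was that much higher on either. Their median log2 ratio was -0.55 and their summed level 493 RPKM in Piwil1+/- and 378 RPKM in Piwil1-/-. The lowest were Fhl5, a partner of the spermatid factor CREM, at 21.6 and 7.86 RPKM and the kinase gene Tssk2 at 14.7 and 5.18 RPKM. Of 13 elongating spermatid markers 10 were measured and 8 were at least 2-fold lower on the log2 (RPKM + 1) scale, 9 by the plain ratio. Their summed levels were 576 and 396 RPKM, most of it from Odf2, an outer dense fiber gene, at 419.7 and 347.8 RPKM. Without Odf2 the other 12 summed to 156 and 47.9 RPKM, and Tnp1, Prm1 and Prm2 were at 0 in Piwil1-/-. Psmf1, Psme3 and Psma6 were lower in the same library as these markers, and the part of spermatid RNA in their levels was not tested.

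**Figure D5:**
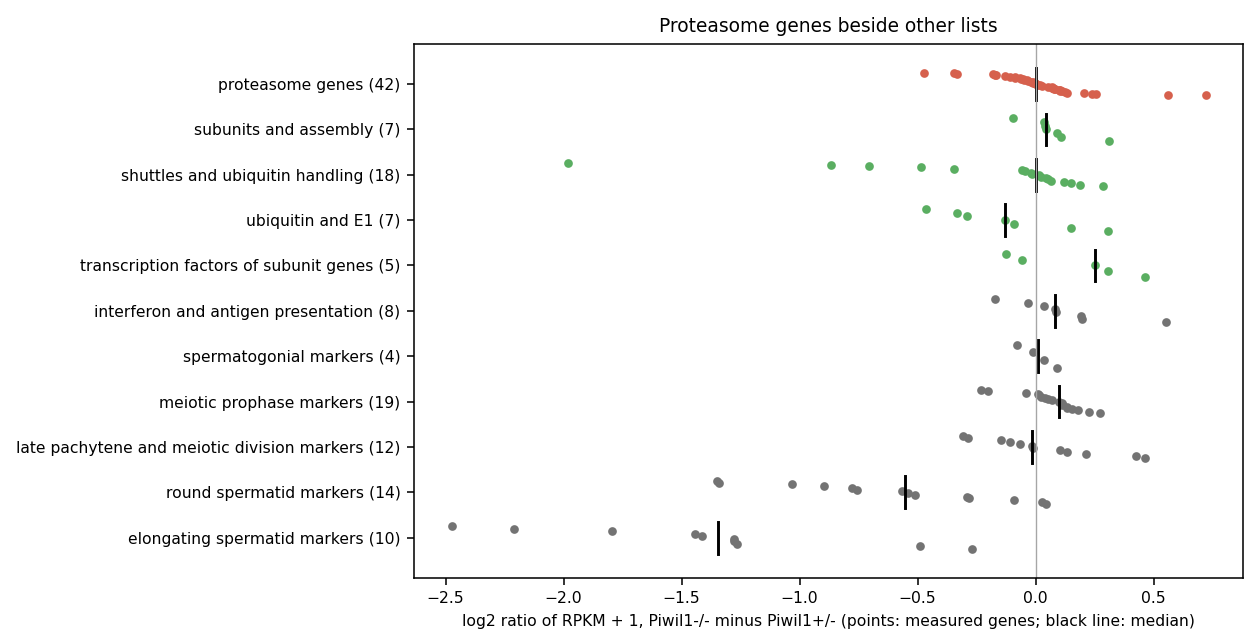
Log2 ratio of RPKM + 1 of each measured gene (points) and the median (black line) for the proteasome genes, 4 lists of genes that work with them (green) and 6 marker lists (grey), with the number of genes in brackets. The proteasome genes centre on 0 while the round and elongating spermatid markers centre on -0.55 and -1.35.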

How the data were processed

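Testis RNA was measured in 1 Piwil1+/- and 1 Piwil1-/- library, made with a strand-keeping TruSeq kit after removal of rRNA, per the labels' protocols. The authors deposited RPKM values for 22808 gene identifiers, of which 22444 matched a symbol. Bowtie, STAR and mm10 are named in the submitters' processing notes. The counter, its annotation and its strand setting were not given in the sources used here. Overlapping genes and near-identical copies therefore cannot be told apart. Coordinates are from RefSeq, GRCm38.p6.

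A pseudocount of 1 RPKM, a minimum of 1 RPKM in either library and folds of 2, 1.5 and 1.25 were used, with no test. Library totals were found from genes whose RefSeq span, under 1500 bp, was taken as their length. Whole reads then followed from the smallest gene length, from 60 to 16000 bases, that made reads whole in both libraries, for 16283 of 16558 genes above 0 in both (98.3%). They are lower bounds, since a factor common to reads and length is lost. Of the 47 member lengths 29 are multiples of 3, against 66.9% of all recovered lengths. Many lengths may thus be coding lengths, in members as in other genes. Intervals are exact binomial at 95% (scipy 1.17.1) on the recovered reads, so they can be wider than counting error where such a factor was lost. The recovery was tested on simulated data in which true gene lengths were given as the spans. That test did not cover the use of RefSeq spans as lengths.

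Named genes are every member by role and, from the lists of the pathway and interferon genes, the 2 highest and 2 lowest log2 ratios; cell markers are given mainly by counts. Some genes that this rule names are not reported here. Further genes were chosen after their values were seen, as were the CCAAT and AANNGAAA cores, the 1.25-fold rule and the count of intervals over all genes. Members and lists were chosen with earlier results of these data known. The small RNA reads were not used here.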

Additional observations from a re-analysis of the deposited data

How the results depend on the processing

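On the log2 (RPKM + pseudocount) scale, no member was past 2-fold and Psma8 was the only member past 1.5-fold higher in every setting. The settings were a pseudocount of 0.1 RPKM, both rescalings, no filter on low values and a mean RPKM of 5 or more. Without the filter, the added members were all under 1 RPKM in both libraries and could not pass 2-fold with 1 RPKM added. The setting with 0.1 RPKM left them out. By the plain ratio Psmb9 was 4.15-fold (1.12 to 22.9), Psmg3 1.70-fold (0.759 to 3.98) and Psmg4 0.648-fold (0.351 to 1.17). The log2 ratio of Psma8 ran from 0.71 to 0.73. The rescalings shifted all log2 ratios by about 0.0087 and 0.0092. The median of the members was -0.0066 after rescaling by the median ratio and -0.0070 by the trimmed mean, and 0.011 without a filter. Of 13 medians of roles and wider groups, 3 changed sign under at least 1 setting: the interferon-type activators, the general alpha ring and the 19S subunits, none of them beyond 0.0244 from 0 as reported. With 1 RPKM added before taking shares, the share of Psma8 in its pair was 88.5% in Piwil1-/-. The share of Psmb8 was then 14.02% and 14.5% in Piwil1+/- and Piwil1-/-, that of Psmb9 2.28% and 2.79% and that of Psmb10 2.01% and 1.95%, since the added value exceeds the immune levels. Leaving out a replicate was not possible with 1 library per genotype. No paired analysis was possible because each genotype has 1 library. Depth limits the immune subunits, Psmg3 and Psmg4, all with at least 3 to 32 reads in Piwil1+/-.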
